A study of Rattus norvegicus with 24 samples.

Results

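The S100 genes encode small calcium-binding proteins, and 9 of them were chosen by name for description in the cortex of rats with and without ischemic injury: S100a1, S100a4, S100a6, S100a8, S100a9, S100a10, S100a11, S100a13 and S100b. Of the 9 members, 8 had a probe on the array, with 1 probe each, among 13337 named genes and 22523 probes. S100a10 carried no probe under its symbol or gene identifier and is not analysed here. The members were chosen with earlier results of these arrays in view, so all their values are a description and carry no test.

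Most S100 proteins are dimers built of paired EF-hands, the helix-loop-helix units that hold calcium. On binding calcium most of them expose a surface that grips partner proteins, among them annexins, cytoskeletal proteins and enzymes. Some are also released and act on cell-surface receptors such as the receptor for advanced glycation end products (Ager) and Toll-like receptor 4 (Tlr4). In brain, S100b is best known as a protein of astrocytes and S100a8 with S100a9 as an abundant complex of neutrophils and monocytes.

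The tissue came from male Wistar rats of 250 to 300 g, with no age stated, and was hybridised to 24 Illumina RatRef-12 beadchip arrays in 6 groups of 4. The treatment animals at 24 h and 8 h had a middle cerebral artery permanently occluded and were given 30 mM ZM447439, an Aurora kinase inhibitor, in 80% DMSO by the intracerebroventricular route. The vehicle animals at 24 h and 8 h had the occlusion and 80% DMSO alone. The sham animals at 24 h and 8 h had the surgery without occlusion, and no injection is described for them, so vehicle against sham would join occlusion with DMSO. All 6 groups shared the craniectomy and the ketamine and xylazine anaesthesia. The protocol places the occlusion on the left, whereas the tissue is labelled right cortex, and the sources used here do not settle which is meant. The neuronal genes Snap25 (133 array medians at 24 h and 140 at 8 h) and Syt1 (133 and 149) stood far above the median, as did the astrocyte gene Gfap (241 at 24 h and 124 at 8 h).

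The first question the design poses, how the injury and the inhibitor altered each gene, could not be put to the S100 members. Within a time point the 12 columns were a single probe profile multiplied by 1 factor per array. Once each column was divided by its median, the 8 members departed from the common profile by at most 1.72e-07 log2 at 24 h and 2.22e-07 at 8 h. Every difference in a member's deposited intensity between treatment, vehicle and sham arrays was therefore that factor, the same for all genes. The sources used here do not state from which arrays each profile was made. The 24 h profile was set against the 8 h profile instead, which leaves 1 value per gene and time, with no replicate error. The profiles do not separate time after surgery from injury, inhibitor or sham operation. In this bulk tissue, fewer cells of a type and less RNA per cell cannot be told apart.

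The S100 members split into 3 that were higher in the 24 h profile, 1 that was lower and 4 that differed little. S100a4 was 2.70-fold higher, S100a11 2.46-fold and S100a6 1.62-fold, while S100a8 stood at 0.488 times its 8 h level. S100b, S100a1 and S100a9 lay within 0.03 log2 of no difference. A size of at least 1.5-fold was counted as higher or lower, and over all named genes 0.907% were higher and 0.682% lower by that size. Among the 5896 named genes at 1.5 times the array median or more in both profiles, a range that holds 7 of the 8 members, the shares were 1.66% and 1.39%. At 2-fold, S100a4 and S100a11 were higher and S100a8 was lower, against 0.225% and 0.112% of all named genes. Since the members were chosen on this contrast, nothing is read from the excess. S100a6 was the member just inside this size and S100a13, at 1.21-fold, the nearest outside it. The median log2 difference was 0.14 over the 8 members and -0.01 over all named genes.

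**Figure D1:**
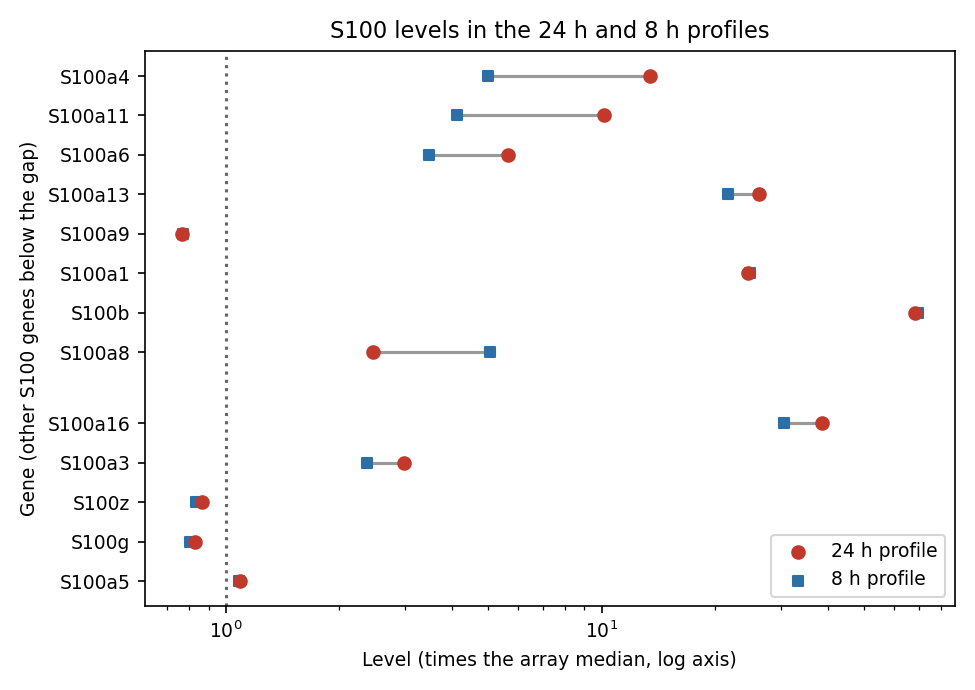
Levels of the 8 S100 members and, below the gap, 5 other S100 genes in the 24 h profile (circles) and the 8 h profile (squares), as multiples of the array median on a log axis. S100a4, S100a11 and S100a6 lie to the right at 24 h, S100a8 lies to the left, and the symbols of S100b, S100a1 and S100a9 nearly coincide.

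S100a4, a protein that binds non-muscle myosin and is abundant in motile cells, had the highest difference of the members. Its deposited intensity over the 12 arrays of 24 h was 1036 at the lowest, 1186 at the median and 1551 at the highest, against 326 at the lowest, 398 at the median and 450 at the highest at 8 h. All 24 h arrays lay above all 8 h arrays. With 1 profile per time, this follows from the single difference and the array factors, and is no agreement among replicates. The same holds for every range and overlap given below. Relative to the array median S100a4 stood at 13.5 in the 24 h profile and 4.99 in the 8 h profile, a log2 difference of 1.43, which ranked 8th highest among the 22523 probes.

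S100a11, a partner of annexin A1, had intensities of 778 at the lowest, 891 at the median and 1164 at the highest in the 24 h arrays, against 269 at the lowest, 328 at the median and 371 at the highest in the 8 h arrays. The arrays of the 2 times did not overlap. Relative to the median of the array, the 24 h level was 10.1 and the 8 h level 4.12, a log2 difference of 1.30, which ranked 11th. The RefSeq gene table lists 5 pseudogenes and 2 genes named as S100a11-like, and whether the probe also binds their transcripts was not tested.

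S100a6 (calcyclin), which binds the calcyclin-binding protein Cacybp, had intensities of 434 at the lowest, 497 at the median and 649 at the highest at 24 h, against 227 at the lowest, 277 at the median and 313 at the highest at 8 h. Again no array of one time reached the range of the other. In multiples of the array median the level was 5.65 in the 24 h profile and 3.48 in the 8 h profile, a log2 difference of 0.70. This placed S100a6 90th highest among the probes.

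The upstream sequences of the 3 higher members are shown because all 3 differed in the same direction, and that of S100a9 as a member whose probe was dim and showed no such difference. Each covers the 250 bases before the gene's start in RefSeq (build GRCr8), written 5′ to 3′ on the gene's strand, with every match to a searched motif in capitals.
S100a4, chr2:178388279-178388528, plus strand: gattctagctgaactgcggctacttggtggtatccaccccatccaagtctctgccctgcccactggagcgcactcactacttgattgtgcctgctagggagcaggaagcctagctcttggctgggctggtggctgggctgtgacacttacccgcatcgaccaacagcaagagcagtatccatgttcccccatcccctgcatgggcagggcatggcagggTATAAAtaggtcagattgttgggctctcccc
S100a6, chr2:178398287-178398536, plus strand: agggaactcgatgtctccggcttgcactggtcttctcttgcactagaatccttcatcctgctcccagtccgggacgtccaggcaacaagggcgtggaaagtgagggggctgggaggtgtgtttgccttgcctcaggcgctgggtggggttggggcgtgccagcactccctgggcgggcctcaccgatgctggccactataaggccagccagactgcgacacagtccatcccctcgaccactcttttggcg
S100a11, chr2:181874882-181875131, plus strand: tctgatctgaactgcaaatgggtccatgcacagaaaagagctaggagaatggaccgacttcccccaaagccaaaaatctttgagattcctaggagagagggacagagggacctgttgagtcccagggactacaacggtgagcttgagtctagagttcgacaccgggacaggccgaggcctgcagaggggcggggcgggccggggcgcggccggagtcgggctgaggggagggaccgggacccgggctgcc
S100a9, chr2:178490623-178490872, minus strand: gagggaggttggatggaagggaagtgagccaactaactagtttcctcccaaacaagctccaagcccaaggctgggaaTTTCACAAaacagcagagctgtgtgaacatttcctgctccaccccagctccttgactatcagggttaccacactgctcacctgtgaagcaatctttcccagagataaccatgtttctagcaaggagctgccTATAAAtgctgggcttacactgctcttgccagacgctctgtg
The motifs were searched on both strands: TGANTCA (AP-1), TTNNGNAA (C/EBP), TTCNNNGAA (STAT), the NF-kB motif and TATAAA. S100a4 held TATAAA at 31 to 26 bases upstream of its start, and S100a9 held it at 42 to 37 bases upstream. S100a9 also held a C/EBP match at 173 to 166 bases upstream, and the matches did not overlap. No match to any of these motifs was found in the windows of S100a6, S100a11, S100a13 and S100b. Over 33465 windows of the same length in the RefSeq table, TATAAA occurred in 12.9%, the C/EBP motif in 37.2%, the STAT motif in 7.67%, the AP-1 motif in 6.34% and the NF-kB motif in 3.54%. Of the 9 members, 6 had an entry in that table.

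S100a8 (calgranulin A), a cytosolic protein abundant in neutrophils, was the lowest member. Its intensity over the 24 h arrays was 189 at the lowest, 217 at the median and 283 at the highest, against 330 at the lowest, 402 at the median and 455 at the highest over the 8 h arrays. Every 24 h array lay below every 8 h array. In multiples of the array median it stood at 2.46 in the 24 h profile and 5.05 in the 8 h profile, a log2 difference of -1.04, which was the 13th lowest of the 22523 probes. S100a9 (calgranulin B), its partner in calprotectin, gave no such difference. The S100a9 probe read 58.7 at the lowest, 67.2 at the median and 87.8 at the highest at 24 h, against 50.2 at the lowest, 61.2 at the median and 69.2 at the highest at 8 h, and the times overlapped. With a level of 0.764 in the 24 h profile and 0.768 in the 8 h profile, it lay among the dimmest probes of the array, at the 11.2th percentile of levels at 24 h and the 13.7th at 8 h. The lowest level of any probe was 0.621. No detection call comes with these values, so whether the probe measured S100a9 RNA at all was not tested.

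**Figure D2:**
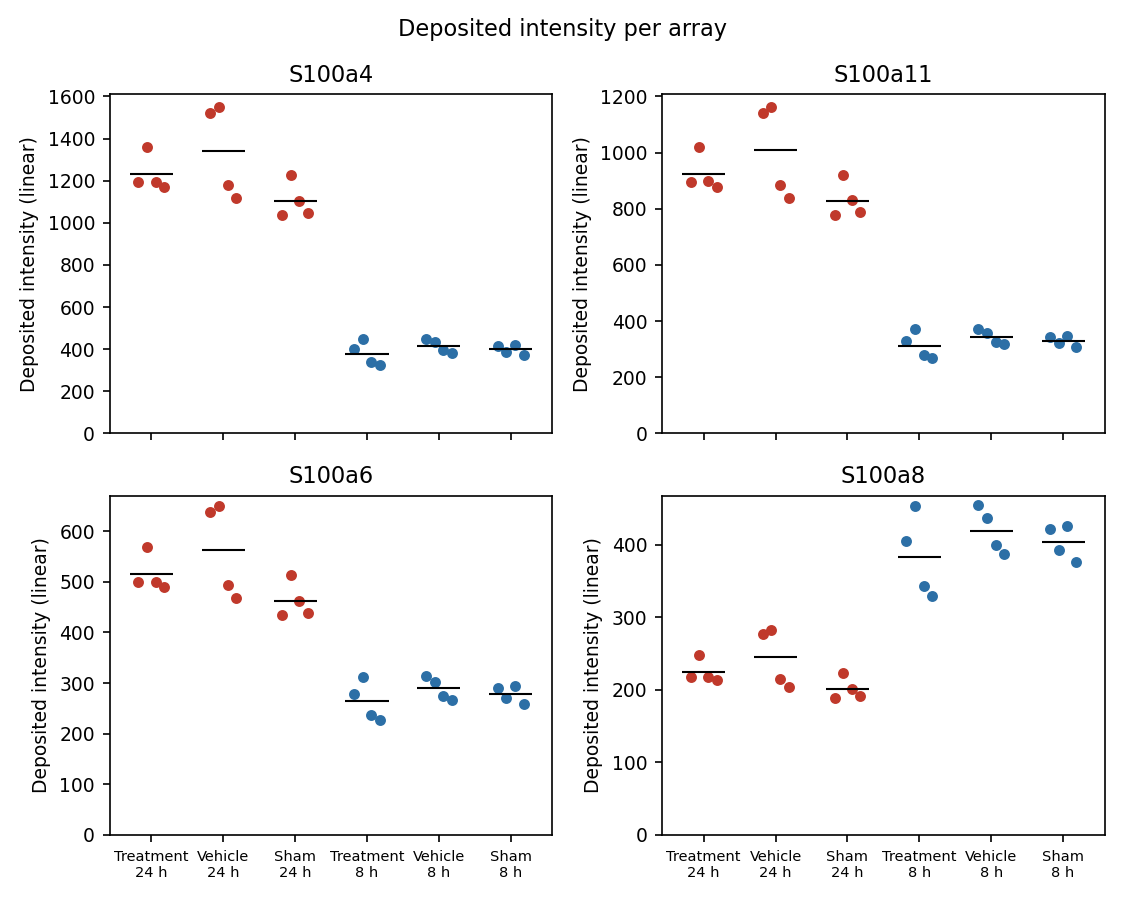
Deposited intensity (linear axis from 0) of S100a4, S100a11, S100a6 and S100a8 in each array by group, with 24 h groups in red, 8 h groups in blue and a black line at the mean of 4 arrays. The 24 h arrays lie above the 8 h arrays for S100a4, S100a11 and S100a6 and below them for S100a8, and the spread within a time is the array factor, which has the same pattern in all 4 panels.

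The other members differed less between the profiles. S100b, the astrocyte and oligodendrocyte protein measured in blood as a marker of brain injury, read 5251 at the lowest, 6011 at the median and 7856 at the highest at 24 h, against 4540 at the lowest, 5536 at the median and 6261 at the highest at 8 h. The 2 ranges overlapped. Its level relative to the median was 68.3 in the 24 h profile and 69.5 in the 8 h profile (log2 difference -0.02).

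S100a1, which regulates calcium pumps and release channels in heart muscle, read 1883 at the lowest, 2156 at the median and 2817 at the highest at 24 h, against 1624 at the lowest, 1980 at the median and 2240 at the highest at 8 h. Its ranges overlapped too, with relative levels of 24.5 in the 24 h profile and 24.9 in the 8 h profile (log2 difference -0.02). S100a13, which takes part in the release of fibroblast growth factor 1 and interleukin 1 alpha, stood between the others. It read 2020 at the lowest, 2313 at the median and 3022 at the highest at 24 h, against 1415 at the lowest, 1725 at the median and 1951 at the highest at 8 h. Its ranges did not overlap, and its relative level was 26.3 in the 24 h profile and 21.7 in the 8 h profile (log2 difference 0.28).

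In all, 4 members had 24 h intensities above every 8 h array and 1 had them below, which adds nothing to their single log2 differences. Among all named genes the same held for 6.07% and 0.285%, a share that includes the higher array factors of several 24 h arrays. The levels of different genes were not ranked against each other, because a probe's brightness also depends on its sequence.

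**Figure D3:**
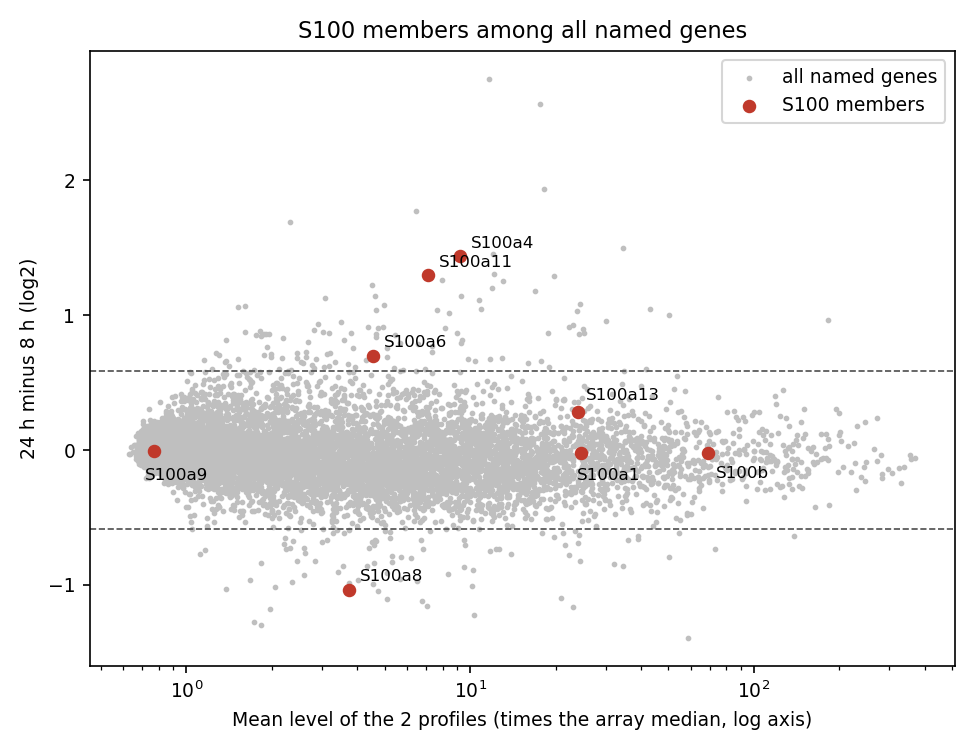
Log2 difference of the 24 h and 8 h profiles (vertical axis) against the mean level of both profiles in multiples of the array median (log axis) for 13337 named genes in grey and the 8 S100 members in red, with dashed lines at 1.5-fold. S100a4, S100a11, S100a6 and S100a8 lie outside the lines, and S100a9 lies at the dim end of the array.

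Of 11 further S100 symbols, 5 had a probe and none differed by 1.5-fold, where 0.907% of all named genes were higher and 0.682% lower. S100a16, a widely expressed member, had a level of 38.6 array medians in the 24 h profile and 30.6 in the 8 h profile (log2 difference 0.33). S100a3 stood at 2.97 and 2.38 times (0.32). S100z (0.866 and 0.832 times), S100g, the intestinal calcium carrier calbindin-D9k (0.827 and 0.803), and S100a5 (1.09 and 1.08) were near the array median or below it in both profiles.

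The S100a genes lie together in the rat genome. In the RefSeq table, S100a1, S100a13, S100a14, S100a16, S100a3, S100a4, S100a5, S100a6, S100a7a, S100a8 and S100a9 are 11 consecutive protein-coding genes of chromosome 2, of which 9 were measured here. S100a11 and S100a10 follow further along the same chromosome, and S100b lies on chromosome 20. Adjacent genes differed in size. S100a3, S100a4, S100a5 and S100a6 follow each other with log2 differences of 0.32, 1.43, 0.01 and 0.70, and S100a8 at -1.04 is next to S100a9 at -0.01. Between S100a9 and S100a11, 7 measured genes that are not of the S100 family ran from -0.19 to 0.09, and most of them were dim.

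By the distance over both log2 levels, the genes most like S100a4 were Arhgdib (12.8 array medians at 24 h and 5.81 at 8 h, distance 0.23), Tspo (11.3 and 4.70, distance 0.27) and the lipid droplet gene Plin2 (11.3 and 5.58, distance 0.30). Those most like S100a8 were the neurotrophin gene Bdnf (2.51 at 24 h and 4.96 at 8 h, distance 0.04), the immediate early gene Egr4 (2.54 and 4.62, distance 0.14) and the adiponectin receptor gene Adipor2 (2.74 and 5.33, distance 0.17). With 2 profiles, this likeness rests on 2 levels per gene.

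Partners and receptors of S100 proteins were followed in the same profiles, with counts and medians given under median scaling. Each list's count past 1.5-fold stands against 0.907% of all named genes higher and 0.682% lower by that size. Of 16 measured binding partners, 1 was at least 1.5-fold higher, none was 1.5-fold lower, and the median log2 difference was -0.02 (-0.09 to 0.04 over the other settings, so without a direction). That 1 was Anxa1, the annexin bound by S100a11, with 4.52 array medians in the 24 h profile and 2.91 in the 8 h profile (0.63). Anxa2, the partner of S100a10, differed by 0.41 (4.57 and 3.45 times). Cacybp stood at 25.0 and 22.0 times (0.18). The lowest partners were Plat, tissue plasminogen activator (7.28 at 24 h and 10.8 at 8 h, -0.57), and the annexin gene Anxa11 (36.8 and 53.2, -0.53). Atp2a2, the calcium pump that S100a1 regulates, stood at 112 and 143 times (-0.35). Myh9, the non-muscle myosin heavy chain bound by S100a4, was near the array median at 1.12 and 1.02 times. Atp2a2, Cacybp and Myh9 were named after their values were seen.

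Among 10 measured receptors and downstream genes, 3 were at least 1.5-fold higher and none was lower by that size, with a median of 0.28 (0.28 to 0.83 over the other settings). The NADPH oxidase genes Cyba (17.3 array medians at 24 h and 7.01 at 8 h, 1.30) and Ncf1 (2.81 and 1.58, 0.83) and the GTPase gene Rac2 (8.29 and 4.80, 0.79) were the 3, all from the phagocyte oxidase. The oxidase gene Cybb (1.18 array medians at 24 h and 0.827 at 8 h, 0.51) was higher by less than 1.5-fold. The receptors themselves were dim or differed by less than 1.5-fold, with Cd36 (1.46 and 1.10, 0.41) the highest of them. Cybb and Cd36 were named after their values were seen. Ager was at 0.952 array medians in the 24 h profile and 0.974 in the 8 h profile, Tlr4 at 0.916 and 0.826, and the S100a9 receptor gene Bsg (basigin) at 14.3 and 14.4. The adaptor gene Myd88 differed by -0.13 (1.98 and 2.16 times).

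Of the other EF-hand genes, which are mostly neuronal calcium sensors and buffers, 16 of 22 measured were below 0, where 7324 of all 13337 named genes (54.9%) also lay. Their median was -0.12 (-0.14 to -0.03 over the other settings), with 1 past 1.5-fold in each direction. The higher 1 was Aif1 of microglia (33.3 array medians at 24 h and 15.7 at 8 h, 1.08) and the lower 1 was the neuronal sensor gene Cabp1 (18.6 and 28.1, -0.60). The calmodulin gene Calm3 differed by -0.38 and the calpain gene Capn2 by 0.17.

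**Figure D4:**
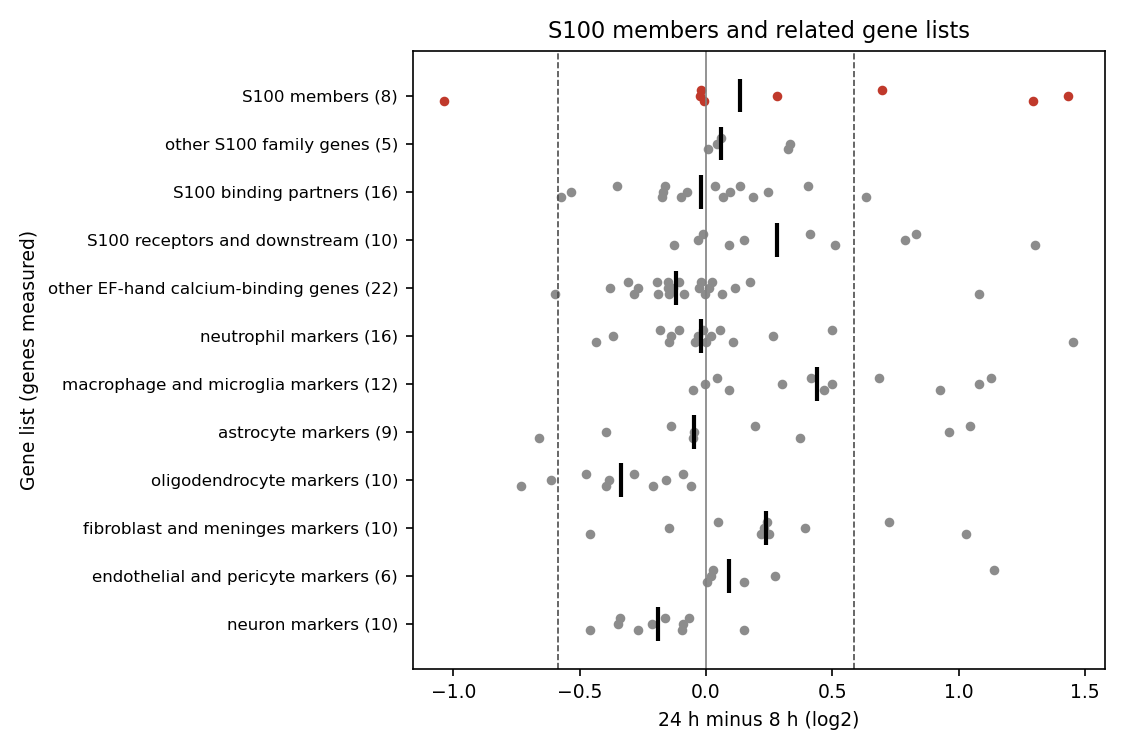
Log2 difference of the 24 h and 8 h profiles for every measured gene of the S100 members (red) and 11 other lists (grey), with a black bar at each list's median, dashed lines at 1.5-fold and the number of measured genes in brackets. The macrophage and microglia markers have the highest median (0.44) and the oligodendrocyte markers the lowest (-0.33), and single S100 members lie from -1.04 to 1.43.

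Markers of cell types that hold S100 proteins are given beside the members. Their counts past 1.5-fold stand against the same 0.907% of all named genes higher and 0.682% lower. In lists of this size, none lower is near that share and is not read as a result. For S100a4, S100a11 and S100a6, macrophage and microglia markers were at least 1.5-fold higher in 4 of 12 measured genes and lower in none. Their median was 0.44 (0.44 to 0.89 over the other settings), with a summed level of 82.9 array medians at 24 h and 45.7 at 8 h. Aif1 (33.3 and 15.7) and Fcer1g (30.2 and 15.9) made up most of that sum. Fcgr3a (1.13), Aif1 (1.08), Fcer1g (0.93) and Tyrobp (0.69) were the 4, while Cd14 differed by 0.09. Cx3cr1 (1.03 and 1.04 times the array median) and Tmem119 (0.999 and 0.970) of resident microglia and Ccr2 (1.07 and 1.11) of monocytes stood near the array median in both profiles. P2ry12 of resident microglia (1.94 array medians at 24 h and 1.40 at 8 h, 0.47) and the integrin gene Itgam (1.68 and 1.19, 0.50) were higher at 24 h by less than 1.5-fold, and both were named after their values were seen. Fibroblast and meninges markers were at least 1.5-fold higher in 2 of 10, Igfbp2 (1.03) and Fbln1 (0.73), and lower by that size in none. The list summed to 112 at 24 h and 98.8 at 8 h, but Igfbp2 alone (31.8 and 15.6) differed by more than the sum. The rest of the list, looked at after its value was seen, therefore summed lower at 24 h, and the brightest gene of that rest was Igf2. By gene the list went the other way. Its median was 0.24 (0.24 to 0.32 over the other settings), and 2 of 10 were below 0, against 54.9% of all named genes. Those 2 were the growth factor gene Igf2 (31.1 at 24 h and 42.8 at 8 h, -0.46) and the receptor gene Pdgfra (3.59 and 3.97, -0.15). Of 6 vascular (endothelial and pericyte) markers, 1 was higher, the smooth muscle gene Tagln (1.14), while the endothelial tight junction gene Cldn5 differed by 0.03. The 6 summed to 42.5 at 24 h and 38.0 at 8 h, and most of that difference was Tagln (6.34 and 2.87). The part of these cells in the S100 differences was not tested.

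For S100a8 and S100a9, 16 of 18 neutrophil markers were measured. Of these, 1 was at least 1.5-fold higher and none lower, the median was -0.02 (-0.21 to 0.13 over the other settings, so without a direction), and the summed level was 33.7 at 24 h and 23.3 at 8 h. The higher gene was Lcn2, which astrocytes also make (17.6 at 24 h and 6.41 at 8 h, 1.45). Without Lcn2, left out after its value was seen, the other 15 summed to 16.1 at 24 h and 16.8 at 8 h. Unlike Lcn2 and Mmp9, the granule genes Mpo, Elane, Ltf and Ngp were near or below the array median in both profiles. This does not tell whether neutrophils were present. Mpo stood at 0.980 and 0.910 times, Elane at 0.773 and 0.764, Ltf at 0.793 and 0.764, and Ngp at 0.740 and 0.756. The neutrophil chemokine receptor gene Cxcr2 stood at 0.774 and 0.780 times. Mmp9 (1.96 at 24 h and 2.65 at 8 h, -0.44) and the decoy receptor gene Il1r2 (2.03 and 2.30, -0.18) were lower at 24 h by less than 1.5-fold. Retnlg (0.807 and 1.04, -0.37), near or below the array median, was lower by less than 1.5-fold too. Itgam, given above (0.50), and the cytokine receptor gene Csf3r (1.10 and 0.917, 0.26) were higher by less than 1.5-fold. Of the 16, 10 were below 0, against 54.9% of all named genes. The part of neutrophils in the S100a8 difference was not tested. Mpo, Elane, Ltf, Ngp, Cxcr2, Retnlg and Csf3r were named after their values were seen, as were the dim microglial and monocyte markers above.

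For S100b, astrocyte markers were higher in 2 of 9 measured genes, Vim (58.2 at 24 h and 28.2 at 8 h, 1.05) and Gfap (0.96), and lower in 1, the connexin gene Gjb6 (-0.66). The receptor gene Fgfr3 differed by -0.39. The median was -0.05 (-0.05 to 0.01 over the other settings, so without a direction). Their summed level was 644 at 24 h and 533 at 8 h. Without Gfap and Vim, left out after their values were seen, the other 7 summed to 345 at 24 h and 381 at 8 h. Oligodendrocyte markers were below 0 in 10 of 10, against the 54.9% of all named genes, with Mal (-0.73) and Mobp (-0.61) past 1.5-fold, a median of -0.33 and a summed level of 274 at 24 h and 375 at 8 h. The myelin genes Opalin (-0.06) and Ermn (-0.09) differed least. Neuron markers were below 0 in 9 of 10, against the same 54.9%, with none past 1.5-fold and a median of -0.19, and summed to 402 at 24 h and 450 at 8 h. The neurofilament gene Nefl (-0.46) and the kinase gene Camk2a (-0.35) were the lowest of them, and Gad2 (0.15), an enzyme of GABA synthesis, and Snap25 (-0.07) the highest.

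The 4 members past 1.5-fold kept their side under each of 6 other scalings or background corrections. S100a4 ran from 1.43 to 1.59 log2, S100a11 from 1.30 to 1.48, S100a6 from 0.70 to 0.85 and S100a8 from -1.28 to -0.94. S100a13 stayed positive, from 0.28 to 0.35. The signs of S100b (-0.02 to 0.03), S100a1 (-0.02 to 0.05) and S100a9 (-0.02 to 0.05) turned with the scaling, so they have no direction. After subtraction of the 1st percentile S100a9 was at the floor and gave no value.

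**Figure D5:**
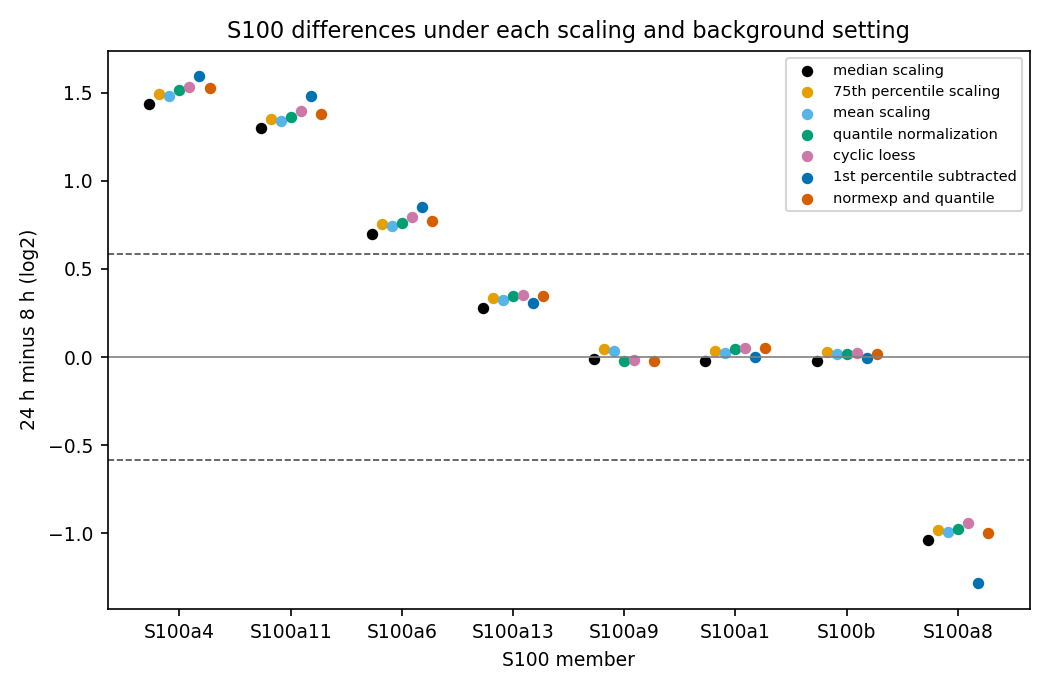
Log2 difference of the 24 h and 8 h profiles for the 8 S100 members under median scaling (black) and 6 other scaling or background settings (colours), with dashed lines at 1.5-fold. S100a4, S100a11 and S100a6 stay above the upper line and S100a8 below the lower line under all 7, and S100a9 has no value under subtraction of the 1st percentile.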

How the data were processed

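Cortical RNA was measured on 24 arrays, and the sample titles gave each array's group and replicate number. The authors deposited linear intensities, and any background correction or normalization behind them is not stated in the labels or file headers. A further 24 columns of non-normalized values match no sample by name and were not used. Each column was divided by its median and the 12 columns of each time were averaged on the log2 scale into 1 profile. The planned limma models of treatment, vehicle and sham could not be fitted, since no probe varied beyond the array factor.

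The S100 members and gene lists were chosen with earlier results of these data known. Named genes were all members, the 2 highest and 2 lowest of each list among genes at 1.5 times the array median or more in both profiles, Anxa2, Ager, Tlr4 and Gfap, and the 3 genes nearest to the highest and the lowest member. Further genes named after their values were seen were Syt1, Rbfox3, Rac2, Fcer1g, S100z, S100g, S100a5 and those said so in the text. Where a gene had several probes, the one of highest mean level was used. Symbols came from the platform annotation (13793 probes with 1 symbol, 8730 with none), and upstream sequences from RefSeq (GRCr8). Alternatives used R 4.3.3 and limma 3.58.1: scaling to the 75th percentile or the mean, quantile normalization, cyclic loess, subtraction of each column's 1st percentile (floor 8), and normexp with an offset of 50 followed by quantile normalization. The calculation of the difference was checked on simulated profiles with known changes, which is no test of the difference itself. The number of arrays does not add precision here, since each time has 1 profile.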

Additional observations from a re-analysis of the deposited data

Results flagged for a closer look

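The median intensity of 1 of the 4 treatment arrays at 24 h stood apart from the other 3. Replicate 2 had 101, against 88.5, 88.6 and 86.7 in replicates 1, 3 and 4, and its gap to the nearest was 0.866 of the group's range. About 1 in 20 groups of 4 exceeds the limit by chance, and 6 groups were examined. The same factor stands in every S100 intensity of that array, and division by the array median removes it from the S100 levels. The cause of the gap was not tested. The flagged median was not the highest at 24 h. Vehicle replicates 1 and 2 had 113 and 115, against 87.4 and 82.8 in vehicle replicates 3 and 4.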

How the results depend on the processing

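With no replicate error, a log2 difference was said to move when it shifted by more than 0.17, the SD of the difference over all probes. The counts of 3 members higher and 1 lower held under all 6 scalings and background corrections, with the mean over a gene's probes and without the lower 50% of probes, which leaves out S100a9. At a size of 2-fold they were 2 and 1. The median over members ran from 0.14 to 0.31 over these alternatives. Leaving out each of the 24 arrays in turn gave 3, 1 and 0.14 every time, as it must with 1 profile per time. S100a8 (-1.28) and S100a11 (1.48) moved after subtraction of the 1st percentile. Levels depend on the divisor: the median member level was 11.8 at 24 h and 5.02 at 8 h in multiples of the array median, 4.22 and 1.73 in multiples of the 75th percentile, and 2.15 and 0.885 in multiples of the mean. Of the 11 other lists, 5 had a median above that of all genes, and 7 did after subtraction of the 1st percentile and without the lower 50% of probes. The list medians that moved were those of other S100 genes (0.33 and 0.32), S100 receptors (0.83 and 0.46), neutrophil (-0.21), macrophage (0.89) and vascular markers (0.33), all after that subtraction or, for the first 2 lists, also without dim probes. Over all named genes, 121 were 1.5-fold higher and 91 lower, 164 and 67 after cyclic loess, and 469 and 375 of 10651 after subtraction. No paired analysis was possible because no test was run on arrays of 1 shared profile. Intensities near the lowest of the array, such as that of S100a9, limit what can be seen of dim genes.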
